A study of Mus musculus with 2 samples.

Results

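Transcripts of 10 genes of the adipocyte lineage were followed through the cells of the femoral marrow: Adipoq, Lpl, Lepr, Pparg, Cebpa, Cebpb, Cebpd, Fabp4, Plin1 and Apoe. They were taken by gene symbol from the 28006 features of both libraries, in barcodes that held 1000 genes or more and no more than 15% of their UMIs on mitochondrial genes, a UMI being a molecular tag that counts each captured transcript once. Symbols matched for 9 of the 10, and Cebpd was not analysed here. The cells were sorted as Cxcl12-GFP+ from femurs of 2 mice on postnatal day 28, 7 days after tamoxifen, 1 library per mouse. Both mice carried Cxcl12(GFP/+), Cxcl12-iCreER and R26R(tdTomato/+), so that every cell had a GFP allele in place of one Cxcl12 copy and no control genotype was present. The Cxcl12-iCreER allele is a bacterial artificial chromosome transgene of 1 line. One protocol label names tdTomato+ rather than GFP+ cells, and the libraries were treated as GFP+ sorts. Each mouse is 1 replicate of a single group, and every comparison was made between classes of cells within the mice.

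Adipocytes arise from mesenchymal precursors through a cascade of transcription factors in which C/EBPβ and C/EBPδ act early and induce PPARγ and C/EBPα, which then keep each other active and switch on genes of lipid storage. In the marrow, perivascular reticular cells that secrete CXCL12 carry the leptin receptor and include precursors of marrow adipocytes. Mature adipocytes float and are easily lost when tissue is dissociated and sorted.

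The libraries held 54940400 and 88790688 UMIs and gave 2750 and 4582 cells, with medians of 12966.5 and 12190 UMIs per cell. Of these cells, 7 barcodes were shared by the libraries. Clustering was done without the genes described here, and clusters were named from marker lists. Reticular-like cells numbered 1313 and 2557 in 4 clusters (numbered 0, 2, 3 and 13), and all 8 reticular markers were raised in each of the 4. Preosteoblast-like cells numbered 425 and 860, periosteal-like cells 75 and 235, endothelial-like cells 152 and 138, myeloid-like cells 346 and 306, lymphoid-like cells 234 and 238, erythroid-like cells 112 and 134 and macrophage-like cells 21 and 21. RNA outside cells carried these transcripts too. In barcodes of 1 to 100 UMIs, Adipoq stood at 641 and 631 counts per 1000000 UMIs (CPM) and Lpl at 1776 and 1402, below the levels of reticular-like cells, whereas Fabp4 stood at 202 and 68.8 CPM, above them. The 8 reticular markers summed to 20920 and 20077 CPM in reticular-like cells, 1687 and 956 in lymphoid-like cells and 421 and 803 in erythroid-like cells. Beside preosteoblast-like cells, the RNA outside cells held more Adipoq, Lpl, Lepr, Pparg, Cebpa, Cebpb, Fabp4 and Apoe in both mice. Lepr, for example, stood at 500 and 632 CPM in this RNA, against 303 and 269 CPM in preosteoblast-like cells. The part of such RNA or of doublets in the levels of the genes below was not tested.

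Upstream sequences of 3 of the genes are shown because these genes sustain the cascade (Pparg, Cebpa) or are a secreted product of it (Adipoq), and all 3 were called higher in the reticular-like class against preosteoblast-like cells. RefSeq promoter entries (GRCm38.p6) matched 7 of the 10 genes. Each run is the 250 bases before an annotated start on the plus strand, with capitals where a searched motif was found. The motifs, searched on both strands, were the C/EBP core TTGCNNAA and its palindrome TTGCGCAA, which is one form of that core, the EBF core CCCNNGGG, the nuclear receptor half-site AGGTCA and the TATA box TATAAA. The runs were Adipoq at chr16:23146286-23146535, the third annotated Pparg start at chr6:115421816-115422065, which lies within an intron of the longer Pparg transcripts, and Cebpa at chr7:35119043-35119292.
Adipoq: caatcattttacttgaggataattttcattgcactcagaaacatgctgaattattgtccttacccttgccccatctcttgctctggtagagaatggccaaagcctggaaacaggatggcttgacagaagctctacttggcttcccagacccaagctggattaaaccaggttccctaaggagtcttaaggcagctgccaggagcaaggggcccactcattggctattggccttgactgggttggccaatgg
Pparg: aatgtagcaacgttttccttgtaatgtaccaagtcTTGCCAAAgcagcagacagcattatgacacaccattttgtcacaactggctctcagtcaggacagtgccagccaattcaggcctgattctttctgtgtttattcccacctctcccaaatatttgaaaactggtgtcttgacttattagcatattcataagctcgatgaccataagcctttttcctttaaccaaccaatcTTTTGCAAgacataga
Cebpa: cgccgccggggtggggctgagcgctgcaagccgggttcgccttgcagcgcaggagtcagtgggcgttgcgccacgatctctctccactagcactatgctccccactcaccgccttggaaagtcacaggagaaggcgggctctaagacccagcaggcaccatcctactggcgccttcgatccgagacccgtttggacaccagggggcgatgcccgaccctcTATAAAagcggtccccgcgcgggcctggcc
None of the motifs was found before Adipoq. The C/EBP core occurred 2 times before the third Pparg start, from base -215 and from base -16 relative to the start, against 9.56% of 32851 promoters of the same length with at least 1 match. The other 2 annotated Pparg starts are not printed because their windows overlap untranslated exons. They held no C/EBP core but a nuclear receptor half-site each, from -28 and -9, and the second also a TATA box from -29. Cebpa held a TATA box at -30, a motif present in 12.4% of promoters. A match of letters is a description and shows no bound factor. The 3' libraries do not show which start of Pparg was used.

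Adipoq encodes adiponectin, a hormone classically assigned to fat cells, and lies on chromosome 16 at 23146536 to 23158028 (GRCm38, plus strand). In reticular-like cells Adipoq stood at 1818 CPM in Mouse #1 and 1749 in Mouse #2, a mean of 1784 ± 49.3 (SD, n = 2). Preosteoblast-like cells followed at 366 and 286 CPM. Every other named class lay between 24.2 and 143 CPM, with periosteal-like cells the lowest in both mice (24.2 and 45.7). The mice did not overlap between reticular-like cells and any other class, the unnamed cells included (221 and 425 CPM). After each cell was thinned to 2000 UMIs, a UMI of Adipoq was found in 84.9% (95% Wilson interval 82.9 to 86.8%) and 84.5% (83.05 to 85.9%) of reticular-like cells, against 5.98% and 5.51% of lymphoid-like cells thinned to the same depth. Before thinning these shares were 93.98% and 95.3% against 11.5% and 12.6%, where the median depth was 12055 and 11176 UMIs for the reticular-like and 5044 and 4382 for the lymphoid-like class. Intervals of this kind cover counting error only.

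Lpl encodes lipoprotein lipase, which frees fatty acids from circulating lipoproteins. It stood at 4639 and 3376 CPM in reticular-like cells and at 1745 and 1381 CPM in periosteal-like cells. Macrophage-like cells held 1952 and 1320 CPM, and preosteoblast-like cells 906 and 484. Periosteal-like and macrophage-like values overlapped each other, while both lay above those of preosteoblast-like cells. Endothelial-like and blood cells lay between 74.2 and 355 CPM. Thinned, Lpl was found in 97.9% and 97.4% of reticular-like cells and in 8.97% and 8.90% of lymphoid-like cells.

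Apoe, which carries lipid between cells, was highest in macrophage-like cells rather than in stroma. These 21 and 21 cells held 7503 CPM (95% Poisson interval 7264 to 7748) and 10614 CPM (10261 to 10975). The same cells also carried erythroid markers at 45553 and 45136 CPM in sum, with 0 and 2 of the 8 undetected, above their own macrophage markers (13049 and 16929), while the reticular-like class held 1292 and 2452 CPM of erythroid markers. Apoe itself was at 58.7 and 146 CPM in erythroid-like cells. The part of this mixed RNA in the levels of macrophage-like cells, for Apoe and for the other genes, was not tested. Reticular-like cells followed at 2683 and 2506 CPM of Apoe, then preosteoblast-like cells at 1210 and 1035 CPM. Apoe stood at 657 and 678 CPM in endothelial-like cells and at 555 and 459 CPM in periosteal-like cells. Myeloid-like, lymphoid-like and erythroid-like cells lay between 58.7 and 251 CPM.

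The leptin receptor gene Lepr stood at 971 and 1211 CPM in reticular-like cells. Periosteal-like cells held 567 and 527 CPM and preosteoblast-like cells 303 and 269. Macrophage-like cells held 98.6 and 15.5 CPM, and the remaining classes 16.9 to 104 CPM. Thinned, Lepr was found in 80.2% and 87.5% of reticular-like cells, 56% and 61.5% of periosteal-like cells and 6.84% and 5.51% of lymphoid-like cells.

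Among the transcription factors, Pparg, the master regulator of fat cell formation, was low but spread over many cells. It stood at 77.6 and 67.2 CPM in the reticular-like class, with a UMI in 51.8% and 44.7% of them before thinning and in 14.7% and 11.2% after. Lymphoid-like cells had a UMI in 2.99% and 3.78% before thinning and in 0.427% and 0.424% after. Macrophage-like cells stood above the reticular-like level in both mice, at 147 (interval 115 to 185) and 108 (75.5 to 151) CPM. Endothelial-like cells held 59.2 and 37.0 CPM, preosteoblast-like cells 29.2 and 16.8 and periosteal-like cells 22.8 and 15.2.

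The endothelial-like class held 2 clusters that differed in Pparg. Cluster 15, led by the sinusoidal genes Stab2 and Flt4, had 28 cells in each mouse and 180 (interval 143 to 223) and 112 (82.5 to 148) CPM. Cluster 7, led by Ly6c1, Gja4 and Sema3g, had 124 and 110 cells and 22.4 and 15.8 CPM. Cluster 15 also held more Cebpb (956 and 1012 CPM against 187 and 173), more Apoe (1850 and 2264 against 294 and 229) and more Fabp4 (7902 and 7899 against 2279 and 1263). In both mice the values of all 4 genes were higher in cluster 15. Lpl was higher there too (585 and 781 CPM against 64.6 and 83.7), as was Cebpa (34.7 and 79.3 against 13.9 and 11.9). Adipoq was at 91.1 and 408 CPM in cluster 15, against 20.5 and 22.4 in cluster 7. The part of reticular RNA in the values of all these genes was not tested.

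Cebpa, which works with Pparg in terminal differentiation, stood at 277 and 228 CPM in reticular-like cells and at 128 and 85.6 CPM in preosteoblast-like cells. Macrophage-like cells held 185 and 115 CPM, between these classes. All other named classes lay between 4.45 and 47.0 CPM. Cebpb, an early factor that is also induced by stress and inflammatory signals, had the widest reach. It reached 1421 and 1445 CPM in reticular-like, 1013 and 1023 in periosteal-like, 678 and 561 in preosteoblast-like and 651 and 759 in myeloid-like cells. The last 2 classes overlapped. Macrophage-like cells held 630 and 344 CPM, endothelial-like cells 367 and 358, and lymphoid-like and erythroid-like cells 46.3 to 118. Pparg, Cebpa and Cebpb each overlap a gene on the opposite strand (Gm44079, Gm45091 and Tmem189), and whether counting kept the strands apart is not given in the sources used here.

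**Figure D1:**
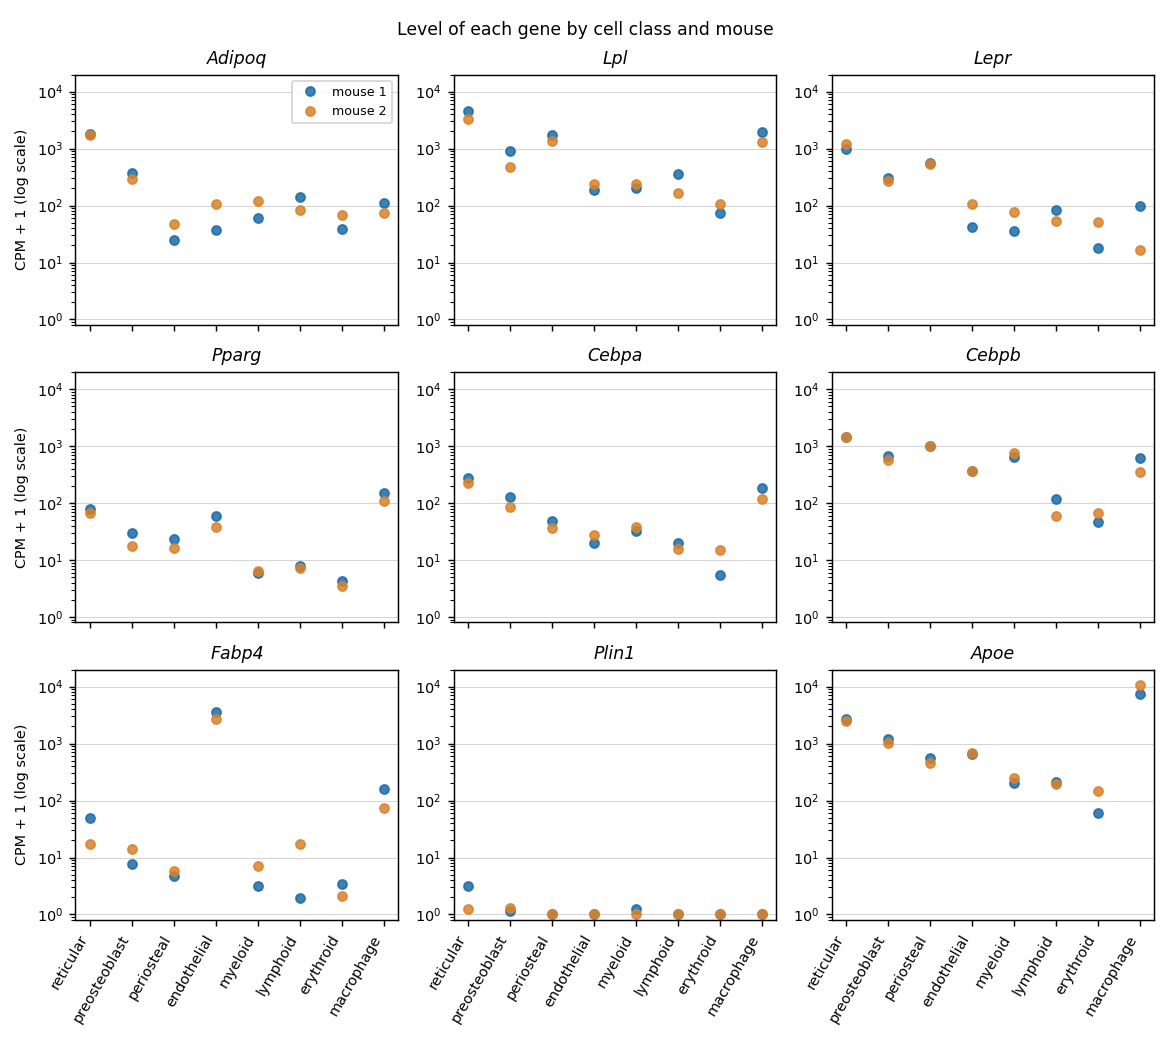
Level of each gene as CPM + 1 on a log scale (vertical) in 8 cell classes (horizontal), 1 point per mouse. Adipoq, Lpl, Lepr, Cebpa and Cebpb are highest in reticular-like cells, Fabp4 in endothelial-like cells (3591 and 2725 CPM), Pparg and Apoe in macrophage-like cells, and Plin1 stays at or near 0 in every class.

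Markers of fat storage did not follow this order. Fabp4, a fatty acid binding protein used as a marker of fat cells and also made by capillary endothelium, stood at 3591 and 2725 CPM in endothelial-like cells and at 48.8 and 16.2 CPM in reticular-like cells. Macrophage-like cells came second at 157 and 74.4 CPM. Lymphoid-like cells held 0.960 and 16.3 CPM. In Mouse #2 their 34 UMIs came from 0.840% of 238 cells, all in cluster 12, and after thinning 0 of 236 cells had a UMI. This level thus rests on very few cells. The Poisson intervals (11.3 to 22.7, and 14.8 to 17.7 in reticular-like cells) treat each UMI as independent and do not compare the classes. The remaining named classes lay between 1.11 and 13.0 CPM. The free RNA held more Fabp4 than reticular-like cells did, and its part in their level and in the calls on Fabp4 below was not tested. Thinned, it was found in 67.8% and 60.1% of endothelial-like cells and 2.91% and 2.12% of reticular-like cells. The few reticular-like cells with the most Fabp4 carried most of it. The top 1% of cells held 76.3% of the Fabp4 UMIs of the class in Mouse #1 and 64.98% in Mouse #2, while the top 1% held 6.48% and 5.28% for Adipoq. One cell of Mouse #1 carried 254 UMIs, 31.3% of the total. Without the top 1%, a step chosen after these values were seen, the level was 11.7 and 5.73 CPM.

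Plin1, the perilipin that coats the lipid droplet of mature fat cells, had 36 and 7 UMIs in all reticular-like cells, or 2.16 and 0.229 CPM, in 6 and 5 cells. It had no UMI in 152 and 138 endothelial-like cells, which, at 3 counts of the total, allows up to 1.97% and 2.17% of cells with a UMI, and none in 75 and 235 periosteal-like cells (up to 4% and 1.28%). These limits concern cells with a UMI at this depth, not cells that express Plin1. Of the 11 mature adipocyte markers, Lep, Pck1 and Ucp1 had no UMI in reticular-like cells of either mouse, and Cidec had 3 and 0. Adrb3, the adrenergic receptor of fat cells, had 138 and 192 UMIs, most of the 146 and 198 in all cells.

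Cells with at least 5 Plin1 UMIs, a limit chosen after the values were seen, numbered 4, all from Mouse #1. They carried 16, 10, 8 and 13 Plin1 UMIs and, in the same order, 307, 254, 19 and 96 Fabp4 UMIs. Their total UMIs were 54020, 15859, 41266 and 14758. Genes of the reticular-like cells were present in each, at uneven levels. Adipoq had 32, 23, 30 and 28 UMIs, Lpl 414, 119, 223 and 161, and Lepr 3, 1, 23 and 5. Adipoq was thus at 592, 1450, 727 and 1897 CPM, against 1818 in the reticular-like class of Mouse #1. Lepr was low for the depth of the first 2 cells. Of mature adipocyte markers, Cidec had 2, 2, 0 and 0 UMIs, Cfd 0, 7, 0 and 0, and Car3 0, 38, 0 and 6. Pparg had 23, 2, 9 and 3 UMIs and Cd36, a fatty acid transporter, 25, 10, 11 and 6. The endothelial genes Pecam1 and Cdh5 had 0 in all 4, and tdTomato had 0 in all 4. These cells fell in cluster 10, a cycling cluster left unnamed, and in reticular-like clusters 13, 0 and 3. They cannot be compared between mice as groups, since each is 1 cell.

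Reticular-like cells were then tested against 6 other named classes, macrophage-like cells not being among them. UMIs were summed per mouse and class, with edgeR's quasi-likelihood test and an adjusted p under 0.05 as the call. Fold changes carry edgeR's TMM scaling, while the CPM above are per total UMIs. Plin1 did not pass the filter on low counts, which left 8 genes. Against preosteoblast-like cells, 7 of 8 were higher and none was lower, where 10.6% of 13310 tested genes were called higher and 9.92% lower. The median log2 fold change of the 8 was 1.70, against 0.00087 over all genes. Lpl differed most, by 2.56 ± 0.35 (SE) on the log2 scale, a 5.91-fold higher level (adjusted p = 0.000328). Adipoq was 5.58-fold higher (2.48 ± 0.46, adjusted p = 0.00233) and Lepr 3.88-fold (1.96 ± 0.45, adjusted p = 0.00935). Among the regulators, Pparg was 3.27-fold higher (adjusted p = 0.000557), Cebpa 2.42-fold (adjusted p = 0.00418) and Cebpb 2.36-fold (adjusted p = 0.00263). Apoe was 2.35-fold higher (adjusted p = 0.00523). Fabp4 had a log2 fold change of 1.68 ± 0.65 and was not called (adjusted p = 0.0893). With either mouse left out, only Lpl and Pparg were called, and the log2 fold changes of the 7 called genes stayed positive.

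Within the preosteoblast-like class the genes were unevenly placed. Cluster 1, led by Spp1, Wif1 and Kcnk2, held 392 and 336 CPM of Adipoq, 972 and 562 of Lpl and 724 and 640 of Cebpb. Cluster 14, led by the osteoblast genes Bglap and Bglap2, had 14 and 62 cells and held 7.66 and 27.3 CPM of Adipoq, 7.66 and 73.6 of Lpl and 63.2 and 149 of Cebpb. In both mice all 3 genes were lower in cluster 14.

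Against periosteal-like cells, 6 of 8 genes were higher and none lower, where 8.36% of genes were called higher and 8.2% lower. Adipoq was 49.2-fold higher (log2 5.62 ± 0.54, adjusted p = 3.59e-05), Cebpa 6.31-fold (adjusted p = 9.12e-05), Apoe 5.14-fold (adjusted p = 0.000112), Pparg 4.02-fold (adjusted p = 0.000599) and Lpl 2.57-fold (adjusted p = 0.0150). Lepr (log2 1.01 ± 0.44, adjusted p = 0.151) and Cebpb (0.50 ± 0.23, adjusted p = 0.167) were not called, though a fit of these 2 classes alone called both (0.00579 and 0.0289). Fabp4 was called at 2.86 ± 0.86 (adjusted p = 0.0398) on 5 and 17 periosteal UMIs, and its adjusted p rose to 0.281 and 0.890 under the looser and the stricter limits on cells. Without Mouse #1, 4 genes were called, and without Mouse #2, 3 were called, Lpl and Fabp4 being lost in both. With DESeq2's size factors in place of TMM, genes called higher were 33.7% of those called, against 50.5%.

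Against endothelial-like cells, 7 of 8 genes were higher and Fabp4 was lower, where 22.4% of genes were called higher and 21% lower. Fabp4 was 90.7-fold higher in endothelial-like cells (log2 -6.50 ± 0.76, adjusted p = 2.16e-05). Adipoq was 26.8-fold, Lpl 20.5-fold, Lepr 16.3-fold and Cebpa 12.02-fold higher in reticular-like cells, with adjusted p of 1.17e-05, 1.96e-06, 4.02e-05 and 2.20e-06 by the same test. Cebpb (4.29-fold) and Apoe (4.21-fold) were higher by less. Pparg was 1.63-fold higher (log2 0.70 ± 0.26, adjusted p = 0.0454), and the call was lost with DESeq2's size factors (adjusted p = 0.117) and with either mouse left out (0.0810 and 0.363). With those size factors, genes called higher were 41.2% of those called, against 51.7%.

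Against myeloid-like, lymphoid-like and erythroid-like cells all 8 genes were higher. Macrophage-like cells were not tested, and in both mice they held more Apoe, Pparg and Fabp4 than reticular-like cells. The share of all genes called higher was 34.5% against myeloid-like, 34.7% against lymphoid-like and 40.2% against erythroid-like cells, and the share called lower was 31.9%, 29.6% and 29.6%. Log2 fold changes against lymphoid-like cells ran from 2.00 ± 0.78 for Fabp4 to 4.14 ± 0.26 for Cebpb, and against erythroid-like cells from 3.53 ± 0.93 for Fabp4 to 4.74 ± 0.39 for Lpl. Against myeloid-like cells Lepr and Adipoq both reached 3.88, and Cebpb was the closest at 0.58 ± 0.23 (adjusted p = 0.0394). That call for Cebpb was lost without Mouse #1 (adjusted p = 0.263) and without Mouse #2 (0.105). Without Mouse #1, Fabp4 was not called against any of the 3 blood classes (adjusted p = 0.349, 0.925 and 0.0512), and against lymphoid-like cells its call was also lost with DESeq2 (0.0577).

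**Figure D2:**
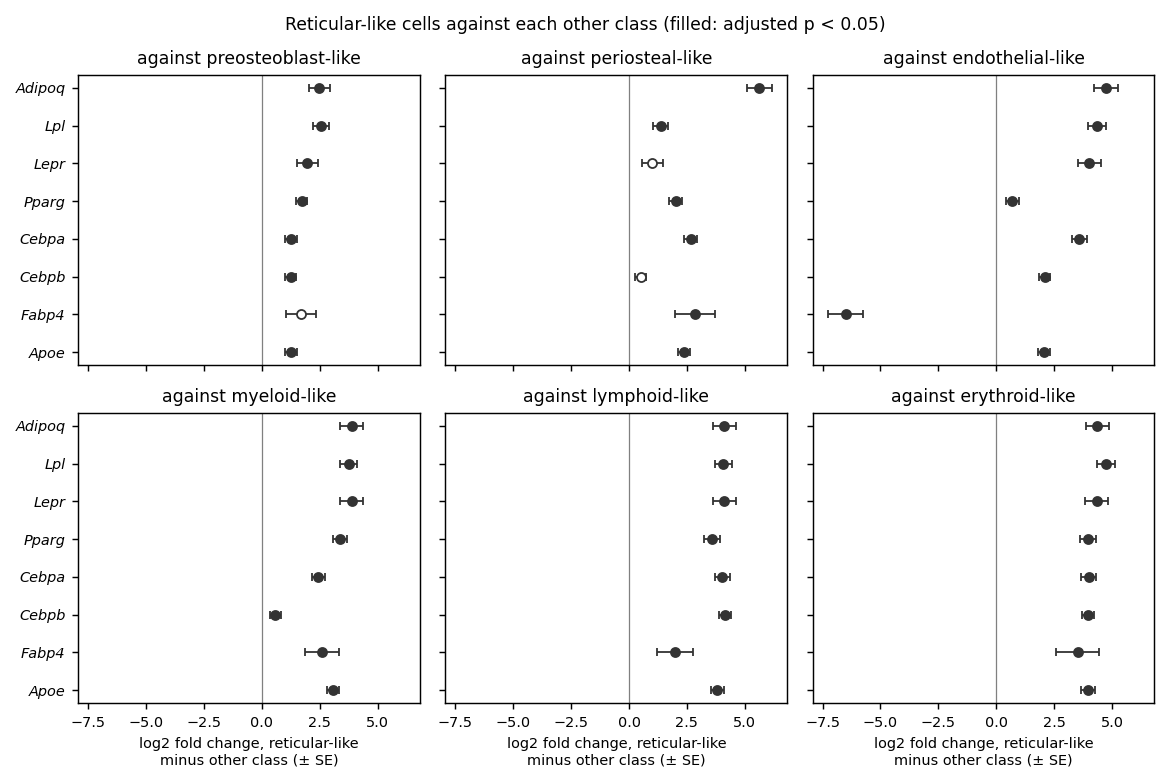
Log2 fold change of reticular-like cells over each of 6 other classes (horizontal, bars ± SE) for the 8 tested genes (vertical); filled points have an adjusted p under 0.05. All points lie to the right of 0 except Fabp4 against endothelial-like cells at -6.50, and the open points are Fabp4 against preosteoblast-like cells and Lepr and Cebpb against periosteal-like cells.

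The other genes of fat cell biology moved unevenly between reticular-like and preosteoblast-like cells, where 10.6% of all genes were called higher and 9.92% lower. Of 12 tested adipogenic regulators, 4 were higher and none lower, among them Prdm16 (log2 2.73) and Klf15 (2.16). Of 11 genes of adiponectin and leptin signaling, 7 were higher and none lower, led by Cdh13, which binds adiponectin (3.17), and Prkaa2, a catalytic subunit of AMP-activated kinase (1.88). Of 7 tested genes that restrain adipogenesis, Klf2 was higher (1.34) and Zfp521 lower (-0.88). Fatty acid synthesis had 3 of 7 lower and none higher, Scd2 (-1.14), Fasn (-0.90) and Acly (-0.70). Of 14 lipid droplet and storage genes 3 were higher, led by G0s2 (1.58), and Mgll, a monoglyceride lipase, was lower (-5.66). Lipid uptake and transport had 2 of 15 higher and 4 lower, with Fabp3 (-5.26), Fabp5 (-3.04) and Vldlr (-2.91) the lowest. Of 5 tested adipokines, Rarres2, which encodes chemerin, was higher (2.95), Nampt was higher (0.50) and Metrnl was lower (-1.56), but with DESeq2's size factors only 1 was called higher and 1 lower. The 1 of 7 and 2 of 15 called higher among restraining and uptake genes lay near the share of all genes. Only 3 of 11 mature adipocyte markers passed the filter. Adrb3 stood at 7.51 and 5.80 TMM-scaled CPM in reticular-like and 0.571 and 0.107 in preosteoblast-like cells, and Car3 at 5.12 and 3.02 against 219 and 438. A gene near 0 in one class passes the filter through classes where it is high, so the call on Adrb3 is not counted as support. The same holds for Mgll, at 1.69 and 1.54 TMM-scaled CPM in reticular-like cells. It also holds for Cdh13, which was near 0 in preosteoblast-like cells and is among the 7 signaling genes counted above. The same may hold for other genes of these lists with large changes in either direction, such as Fabp3. Medians of these lists lay between -0.69 and 2.10, against 0.00087 over all genes. Immediate early genes, which also answer tissue dissociation, had 5 of 8 higher and heat shock genes 3 of 6, none lower.

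Levels also differed among the 4 reticular-like clusters, which is a description because the clusters were drawn from the same cells. Cebpb varied most among the genes other than Fabp4 and Plin1. It stood at 1812 and 1902 CPM in cluster 0 (led by Tnfsf11, Vasn and Ccl2), 1367 and 1308 in cluster 2, 278 and 281 in cluster 3 (led by Bmp4) and 239 and 174 in cluster 13, so that the highest cluster exceeded the lowest 7.60-fold and 10.9-fold. The 8 immediate early genes summed to 11701 and 5845 CPM in cluster 0, 13150 and 13441 in cluster 2, 3685 and 4414 in cluster 3 and 742 and 494 in cluster 13. They were thus low in the same clusters as Cebpb, and their part in its level was not tested. Median depth in Mouse #1 ran from 14419.5 UMIs per cell in cluster 0 to 4029 in cluster 13.

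Lpl, Cebpa, Lepr, Pparg, Adipoq and Apoe changed less across these clusters. Lpl varied 1.32-fold and 1.10-fold, Cebpa 1.43-fold and 1.17-fold, Lepr 1.64-fold and 1.29-fold and Pparg 2.05-fold in both mice. Adipoq was highest in cluster 13, at 2544 and 2924 CPM against 1647 and 1710 in cluster 3. Apoe was likewise highest in cluster 13, at 3955 and 3772 CPM against 2277 and 2099 in cluster 3. Pparg was lowest in cluster 13 on 9 and 7 UMIs. Fabp4 had the widest range, from 16.2 CPM in cluster 2 to 1452 CPM in cluster 13 of Mouse #1, where 1 cell carried 254 of its 274 UMIs, and had no UMI in that cluster in Mouse #2.

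**Figure D3:**
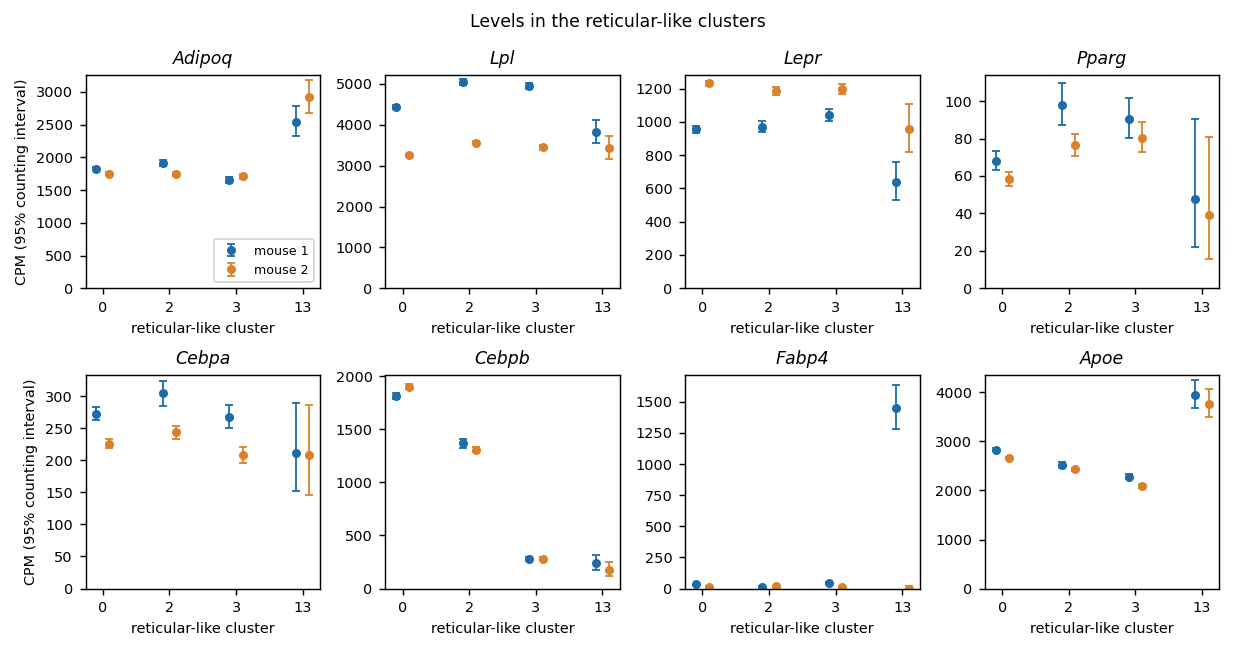
Levels in CPM (vertical, from 0) in the 4 reticular-like clusters (horizontal), 1 point per mouse with its 95% Poisson interval for counting error. Cebpb falls from 1812 and 1902 CPM in cluster 0 to 239 and 174 in cluster 13, while Adipoq and Apoe are highest in cluster 13 and Lpl and Cebpa change little.

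Within single reticular-like cells thinned to 2000 UMIs, the median number of the 9 genes with a UMI was 5 in both mice. Adipoq, Lpl and Lepr were found together in 68.1% (95% Wilson interval 65.5 to 70.6%) and 73.02% (71.3 to 74.7%) of these cells. The same 3 were found together in 15.3% and 11.2% of preosteoblast-like cells, 1.33% and 6.41% of periosteal-like cells and 2.99% and 0.847% of lymphoid-like cells at the same depth. Pearson correlations of the thinned values over 1308 and 2543 cells were 0.44 and 0.33 for Adipoq with Apoe and 0.36 and 0.25 for Adipoq with Lpl. Adipoq with Pparg gave 0.07 and 0.04. These values come from sparse counts of 1 library each and describe the cells only.

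The genes whose pattern was most like each of the 8 over 36 sums (18 clusters in 2 mice, log2 of CPM + 1) were looked up among 10624 genes outside all lists. The sums share their libraries, so the correlations are descriptive. Lepr was closest to Ghr (Pearson r = 0.98), Serping1 (0.98) and Abi3bp (0.98), Lpl to C1ra (0.95), Smoc1 (0.92) and Vcam1 (0.92), and Apoe to Vcam1 (0.93), Trf (0.91) and Maf (0.91). Pparg was closest to Fblim1 (0.93), Sepp1 (0.93) and Aldh6a1 (0.91), and Cebpa to Cd302 (0.93), Serpina3g (0.92) and Tns3 (0.92). Cebpb was closest to Nfil3 (0.88), Jdp2 (0.86) and Tnfrsf1a (0.84). Fabp4 was closest to Ltc4s (0.86), Unc45b (0.85) and Ushbp1 (0.83).

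The 3 genes most like Adipoq were Kng1 (0.95), Kng2 (0.93) and Crygs (0.93), and all 3 lie upstream of Adipoq on chromosome 16. Kng1 starts 88.7 kb, Kng2 117 kb and Crygs 335 kb before it (GENCODE M21, GRCm38). Kng1 and Kng2 encode kininogens of similar sequence, and reads may be split between them. In reticular-like cells Kng1 stood at 525 and 486 CPM and Kng2 at 656 and 542, against 256 and 116 and 202 and 105 in preosteoblast-like cells. Crygs stood at 20.9 and 25.01 CPM against 12.6 and 6.86. The window was examined after these names were seen. Within 500 kb on either side, 10 genes reached 20 CPM in some sum. Of these, 3 had r above 0.9, and they are the same Kng1, Kng2 and Crygs that led to the window. Their count was thus fixed in advance and is no test against the 0.0739% of 10820 genes above 0.9. The genes lying between Kng1 and Adipoq did not reach 0.9, with Eif4a2 at 0.34 and Rfc4 at -0.24. For Lpl, Lepr, Pparg, Cebpa and Apoe, none of the 3 to 23 genes within 500 kb had r above 0.9, where 0.0555% to 1.37% of all genes did. At such shares, windows with so few genes were likely to hold none, so they give no contrast to Adipoq. For Cebpb, Fabp4 and Plin1 no gene at all reached 0.9, so that they give no comparison either.

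**Figure D4:**
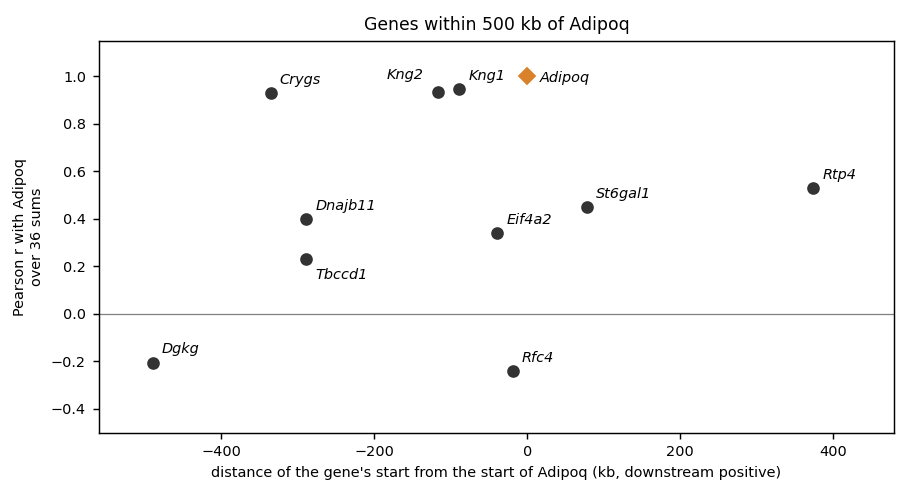
Pearson r with Adipoq over 36 sums (vertical) of the 10 genes within 500 kb, by the distance of each start from that of Adipoq in kb (horizontal, downstream positive); the diamond is Adipoq itself. Kng1, Kng2 and Crygs lie above 0.9, all upstream, and the other 7 lie between -0.24 and 0.53.

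The tdTomato reporter marks cells in which Cxcl12-iCreER had acted, and the last comparison asked whether marked reticular-like cells differed in these genes. A cell was positive above the 99th percentile of blood cells of its mouse, 8.91 and 14.7 tdTomato UMIs per 10000. This gave 504 positive and 809 negative cells in Mouse #1 and 987 and 1570 in Mouse #2. Adipoq stood at 2041 CPM in positive and 1672 in negative cells of Mouse #1 and at 1958 and 1610 in Mouse #2, a log2 ratio of 0.29 and 0.28. Apoe stood at 2849 and 2574 CPM and at 2652 and 2409, and Cebpb at 1519 and 1357 and at 1497 and 1411. All 3 were higher in the positive cells of both mice. Lpl gave log2 ratios of 0.04 and 0.05 and Lepr 0.10 and 0.07, while Pparg gave -0.17 and -0.04 and Cebpa -0.18 and -0.10. Fabp4 gave -1.86 and 0.16, and its direction thus differed between the mice.

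Without a block for mouse, edgeR called 0 of 12248 genes in either direction (0% higher, 0% lower), with 554 at an unadjusted p under 0.05 and 10 called by DESeq2. None of the 8 tested genes was called (Adipoq adjusted p = 0.905). With the mouse as a block, which compares positive and negative cells of the same animal, 462 genes were called higher (3.77%) and 379 lower (3.09%). In that blocked fit Adipoq (adjusted p = 6.60e-10), Apoe (0.00208) and Cebpb (0.0155) were higher in positive cells by log2 0.32, 0.18 and 0.16. Fabp4 was called lower by the block at -0.85 (adjusted p = 7.74e-15), although its direction differed between the mice. The blocked fit rests on few sums, and for Fabp4 its p did not reflect the spread between the mice. The adjusted p of the other genes in this fit are therefore to be read with the same caution. Erythroid markers summed to 448 CPM in positive and 1847 in negative cells of Mouse #1 and to 375 and 3830 in Mouse #2, and their part in these differences was not tested.

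**Figure D5:**
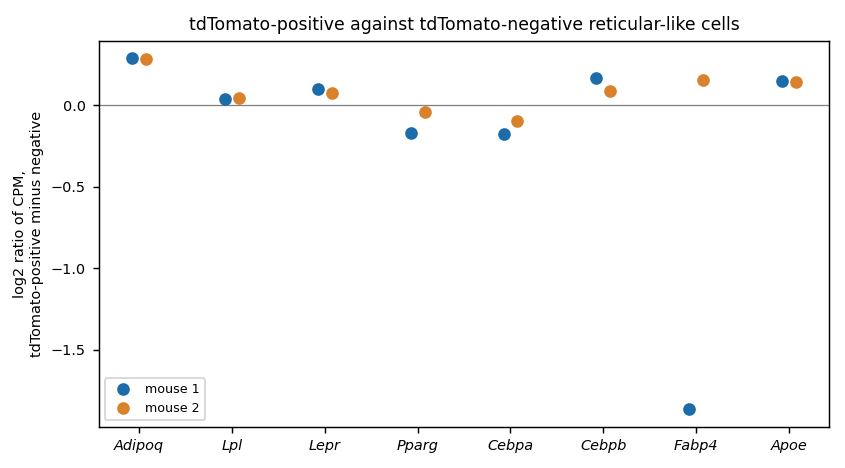
Log2 ratio of CPM in tdTomato-positive over tdTomato-negative reticular-like cells (vertical) for 8 genes (horizontal), 1 point per mouse. Adipoq, Cebpb and Apoe are above 0 in both mice, and Fabp4 lies at -1.86 in Mouse #1 and 0.16 in Mouse #2.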

How the data were processed

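The values deposited by the authors are unnormalized counts of UMIs for each barcode and feature, made with Cell Ranger 3.0.0 per the file headers, on mm10 with added reporter sequences. The annotation release is not given in the sources used here. All barcodes of the 10x list were present, so cells were picked here by a floor of 1000 genes and a ceiling of 15% on mitochondrial UMIs.

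Counts were scaled to 10000 per cell, logged and regressed on log UMIs. From 2000 variable genes, which excluded 112 list genes and with them every gene described, 30 principal components and a graph of 15 neighbors were clustered (leidenalg 0.10.2, resolution 0.5). A cluster was named "X-like" for the class with the largest share of markers raised 1.5-fold in at least 10% of cells, with at least 3 raised. It stayed unnamed where its leading genes were of another class or of the cell cycle. This scoring rule was set after the clusters were seen. The names were rebuilt here and may differ from the study's. Doublets were kept, since Scrublet (scanpy 1.11.5) marked 2 and 3 cells and had thus not worked. The alternative on doublets removed the 60 and 168 cells with the highest Scrublet scores. As it rests on the same scores, it cannot show how far doublets bear on the results.

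Sums per mouse and class were tested in edgeR 4.0.16 (R 4.3.3; TMM, filterByExpr, quasi-likelihood, Benjamini-Hochberg over all genes), 7 classes in 1 fit, with the mouse as replicate. Both mice give every class, so numbers pair by animal. Checked over genes, deviations of the same mouse correlated at 0.13 to 0.28 for classes and 0.51 for tdTomato. The code was tested on simulated data. Alternatives covered limits on cells, resolution, doublets, scaling, DESeq2 1.42.0, filtering, the block, leaving out a mouse, 2-class fits and a limit of 5 tdTomato UMIs. Thinning drew 2000 UMIs per cell at random and left out 6 and 21 cells.

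The genes and lists were chosen with earlier results of these data known. Named were the given genes in every comparison, up to 4 called genes per list with the largest change, and per gene the 3 most similar genes outside the lists where it reached 20 CPM in a class. CPM are counts per 1000000 UMIs of a class. Total depth was 54940400 and 88790688 UMIs, so levels of a few CPM in small classes rest on few counts.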

Additional observations from a re-analysis of the deposited data

How the results depend on the processing

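Of 672 log2 fold changes of the genes recomputed under the alternatives, 616 kept their direction and their side of the threshold, 42 lost a call, 13 gained one and 1 reversed. The one that reversed was Fabp4 in tdTomato-positive cells, at 0.16 without replicate 1 and -1.86 without replicate 2. Of the lost calls, 12 were lost without Mouse #1 and 10 without Mouse #2, which leaves 1 sum for each of the compared classes, so that their spread is taken from the other classes. All genes called then numbered 418 to 942 against preosteoblast-like, 439 to 599 against periosteal-like, 3260 to 3336 against endothelial-like, 6474 to 7034 against myeloid-like, 6156 to 6438 against lymphoid-like and 7644 to 7703 against erythroid-like cells. Genes of the set called numbered 2 to 2, 3 to 4, 7 to 7, 6 to 7, 7 to 8 and 7 to 8 in the same order. For tdTomato, leaving out a mouse gives a ratio with no test.

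In the comparison by tdTomato, DESeq2 called 10 genes, the fit with no filter on low counts 105, the limit of 5 tdTomato UMIs 1 and the replicate block 841, against 0. Of the set, the unfiltered fit called 2 (Fabp4 and Plin1, both lower in positive cells) and the block 4. The cause was not tested. The block for mouse changed no other call of the set. Size factors of DESeq2 moved the median log2 fold change of all genes by more than 0.1 in 5 comparisons, the most from 0.36 to 0.12 against erythroid-like cells. None of the 306 calls in the other lists changed sign under them. Shares of cells moved with thinning depth, for example Pparg, as the mean of both mice, from 12.96% at 2000 UMIs to 28.3% at 5000 and 48.2% unthinned. With 2 mice, and 21 macrophage-like cells in each, small classes carry wide counting intervals.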

Other observations

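Of 15 tested genes of lipid uptake and transport, 3 were higher in reticular-like and 6 in endothelial-like cells, where 22.4% of all genes were called higher and 21% lower. The 3 of 15 lay near the share of all genes. Gpihbp1, which anchors lipoprotein lipase to capillary endothelium, stood at 365 and 345 TMM-scaled CPM in endothelial-like cells and at 0.109 and 0.121 in reticular-like cells, where Lpl itself was highest. Cd36, a fatty acid transporter, stood at 281 and 174 against 3.65 and 0.362. Cdh13, the adiponectin-binding cadherin, stood at 220 and 217 against 11.8 and 11.9, while preosteoblast-like cells held less of it (1.14 and 1.40). Among enzymes of storage, Mgll stood at 234 and 184 in endothelial-like cells against 1.69 and 1.54, and Pnpla2 at 65.8 and 55.9 against 9.69 and 7.61. These are levels given without a test, because genes near 0 in reticular-like cells pass the filter on low counts through the classes where they are high. Such genes also enter the count of 6 higher in endothelial-like cells, which is therefore not read as a result.

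Of 12 tested adipogenic regulators, 4 were higher and 3 lower against endothelial-like cells, but 3 were higher and 4 lower with DESeq2's size factors. Against myeloid-like cells 8 were higher and 1 lower, where 34.5% of all genes were higher and 31.9% lower. The lower one was Cebpe, the granulocyte C/EBP factor, at 324 and 395 TMM-scaled CPM in myeloid-like and 0.599 and 0.332 in reticular-like cells. It passes the filter through classes where it is high, so its call is not counted as support. Against lymphoid-like cells 10 were higher and none lower (34.7% and 29.6% of all genes). Of 14 lipid droplet and storage genes, 2 were higher and 11 lower against myeloid-like cells, among them Dgat2 at 2.12 and 1.12 against 40.2 and 65.4 TMM-scaled CPM. Since genes as low as Dgat2 pass the filter in the same way, the 11 are given as a description.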
